A study of Mus musculus with 6 samples.

Results

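The Myc and Max network is a set of transcription factors of the basic helix-loop-helix leucine zipper class that act in pairs. The 10 genes described here are the 3 Myc genes *Myc*, *Mycn* and *Mycl*, their shared partner *Max*, and 6 genes for other partners of Max, namely *Mxd1*, *Mxi1*, *Mxd3*, *Mxd4*, *Mnt* and *Mga*. They were chosen by name, with no rule on their values but with earlier results of these data known, from the 53657 gene names counted in sorted mouse spermatogonia. All 10 had enough counts to be tested among 19656 genes. The study asked what an activated *Hras* allele changes in the transcripts of undifferentiated spermatogonia of the adult testis.

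The 3 WT mice carried *Gfra1-creERT2* and a tdTomato reporter, and the 3 MUT mice carried in addition a floxed *FR-Hras G12V* allele, so that recombined MUT cells were heterozygous for Hras G12V expressed from the endogenous locus. Both groups received 2 courses of tamoxifen of 4 days each and were sampled as adults 3 months later, on a mixed genetic background with littermate controls. The Cre recombinase is driven by the *Gfra1* promoter, and only cells that were positive for tdTomato and bright for the surface protein MCAM were sorted. The tdTomato signal marks recombination at the reporter locus and not at *Hras*. The study reports that most of the isolated MUT cells also carried the mutation. Each mouse gave 1 library of raw counts per gene, and the libraries held between 22729292 and 23550433 counts, so that 3 counts equal 0.127 to 0.132 CPM (counts scaled to library size, here by the TMM method). The p-values below measure the spread between these mice. Where 3 values of a group are listed, they stand in the order of replicates 1, 2 and 3.

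As background, a Myc protein binds DNA only as a pair with Max, mostly at the E-box CACGTG, and the pair raises transcription of genes for ribosome assembly, metabolism and cell division. The Mxd proteins, Mxi1 and Mnt compete for Max and for the same E-boxes, and bring the Sin3 and histone deacetylase corepressor to them. Mga carries a second DNA-binding domain of the T-box kind and works with Max in the Polycomb complex PRC1.6, which keeps meiotic and other germ line genes silent in embryonic stem cells. In cultured spermatogonial stem cells, *Mycn* and *Myc* are known for supporting self-renewal, and *Mycn* is known to respond to growth factor signals.

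The E-box that the network binds also occurs in the promoters of some of its own genes. Promoter windows of 300 bases, from 250 bases before to 50 bases after the annotated start, were taken from RefSeq on GRCm38.p6 for 9 of the 10 genes. The letters CACGTG, which read the same on both strands, were found in 3 of these 9 genes, against 8.09% of the 27025 genes with a window. The first base of the motif was 3 bases upstream of the RefSeq start of *Max*, so that its letters span that start. It was 219 bases upstream of the RefSeq start of *Mxd4* and 123 bases upstream of that of *Mnt*. The annotation used for the counts starts *Max* at chr12:76962201 on the minus strand, and by that start the motif lies wholly upstream. The 60 bases around each (chr12:76962219-76962278 on the minus strand, chr5:34187897-34187956 on the minus strand and chr11:74830774-74830833 on the plus strand) are shown because they place the network's own motif in genes whose levels follow below, with the motif in capitals and 27 bases on each side:
Max: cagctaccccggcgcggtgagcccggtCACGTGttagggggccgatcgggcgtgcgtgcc
Mxd4: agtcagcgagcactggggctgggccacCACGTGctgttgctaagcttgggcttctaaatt
Mnt: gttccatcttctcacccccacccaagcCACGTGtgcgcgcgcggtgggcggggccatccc
These are matches of letters only, and binding was not measured here.

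Transcripts of all 10 genes were counted in these sorted samples, over a 20.3-fold span of levels per length. Counts of different genes were made comparable by dividing the CPM by the length of the merged exons in kb, and the levels in this paragraph and the next are on that scale, as means over the 6 samples. *Mga* was first at 37.7 CPM per kb, above 92.8% of all tested genes, and *Max* and *Mycn* followed at 20.2 and 19.9. *Mnt* stood at 14.8, *Mxi1* at 13.5 and *Mxd4* at 11.8, and *Mycl* at 7.50 was the middle of the 3 Myc genes. The lowest were *Mxd3* at 3.34, *Mxd1* at 2.61 and *Myc* at 1.86, with *Myc* above 36.7% of the tested genes and last of the 10 in each of the 6 samples.

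**Figure D1:**
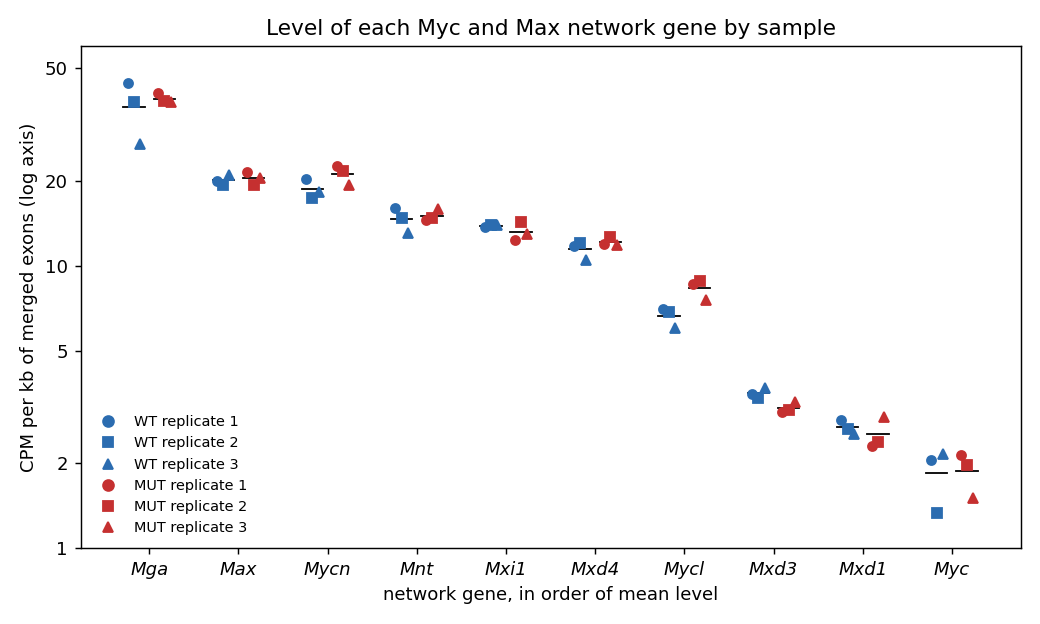
Level of each network gene in CPM per kb of merged exons (log axis) by sample, with WT in blue, MUT in red, a symbol for each replicate number and a black bar at each group mean. *Mga* lies between 27 and 44.3 and *Myc* between 1.34 and 2.16, and the WT and MUT points of each gene lie close beside each other compared with the distances between most genes.

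Neighbours in this order did not all differ beyond their spread over the samples. *Max* and *Mycn* exchanged places, with *Max* higher in 3 of 6 samples (19.3 to 21.4 against 17.4 to 22.5 CPM per kb). *Mnt* exceeded *Mxi1* in 5 of 6 samples and their ranges overlapped, and *Mxi1* exceeded *Mxd4* in 6 of 6 samples although the ranges over samples overlapped. The other neighbours had separate ranges. With the longest annotated transcript as the length, chosen after seeing the data, *Max* stood at 37.5 and *Mxd4* at 21.6 CPM per kb, which put *Mxd4* ahead of *Mxi1* and *Mnt*, while *Mga*, *Max* and *Mycn* stayed the first 3 and *Mycl*, *Mxd3*, *Mxd1* and *Myc* the last 4, in the same order. The longest annotated transcript of *Mxd4* has 1 exon, while its merged exons number 6, so its place on that scale is uncertain.

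Between genotypes, none of the 10 genes passed an FDR of 0.1 in edgeR's quasi-likelihood test, and the log2 fold changes ran from -0.17 for *Mxd3* to 0.33 for *Mycl*. Among all tested genes 2 passed, which is 0.0102%, both lower in MUT. They were the immunoglobulin segments *Igkv4-91* and *Ighv3-6*, named after their values were seen. DESeq2 and limma voom also called 0 of the 10 genes, and 1 of the 10 had an unadjusted p under 0.05 in edgeR, against 2.78% of all tested genes. With the replicate number as a block, 13 genes passed in all (0.0661%), again none of the network.

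The data bound each change more tightly than the lack of a call does. The 95% interval of all 10 fold changes lay within 1.5-fold in either direction, which was true of 92.0% of the 10583 genes with a mean of at least 10 CPM. Of the 10, *Myc* (5.03 CPM in WT and 5.08 in MUT) and *Mxd3* (8.38 and 7.43 CPM) lie below that level. The point estimates were above 0 for 7 genes and below 0 for 3, with a median log2 fold change (MUT minus WT, here and throughout) of 0.03 against 0.01 over all tested genes. *Mycl* was the 1 gene with every MUT sample above every WT sample, a pattern found in 4.69% of tested genes, and *Mxd3* was the 1 gene with the reverse, found in 3.00%.

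**Figure D2:**
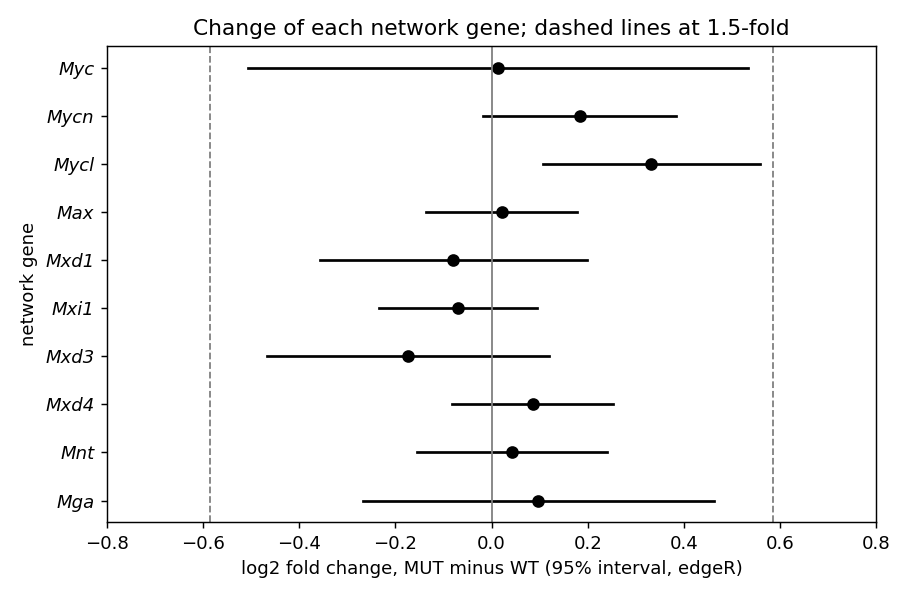
Log2 fold change (MUT minus WT) of each network gene with its 95% interval from edgeR, for 3 WT and 3 MUT samples, with dashed lines at 1.5-fold. The 10 intervals lie inside the dashed lines, and only that of *Mycl*, from 0.11 to 0.56, leaves out 0.

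The Myc genes come first because they are the members that activate transcription. *Mycl*, which encodes L-Myc (chr4:122995652-123002485 on the plus strand, GRCm38), was counted 650, 646 and 577 times in the WT mice against 799, 824 and 715 times in the MUT mice. After scaling these were 28.4, 27.6 and 24.4 CPM in WT and 34.9, 35.7 and 30.6 CPM in MUT. The groups did not overlap, and MUT replicate 3 was the sample nearest to WT. Mean levels were 26.8 ± 2.13 CPM for WT against 33.7 ± 2.78 CPM for MUT (SD, n = 3), a 1.26-fold difference (95% interval 1.08 to 1.47) and a log2 fold change of 0.33 (SE 0.10). Its unadjusted edgeR p was 0.00918 and the p adjusted over all tested genes was 0.998, so that the difference did not pass the test. An exact two-sided permutation test gave p = 0.1, the smallest that 3 against 3 samples can give. With the block the adjusted p was 0.301, and over the alternatives it ranged from 0.251, without MUT replicate 3, to 1.

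*Mycn* encodes N-Myc and is the Myc gene with the highest level in these samples (chr12:12936093-12941914 on the minus strand). The WT mice had 1533, 1339 and 1424 counts and the MUT mice 1699, 1651 and 1485. WT replicate 1, at 67.0 CPM, exceeded MUT replicate 3, at 63.5 CPM, so the groups overlapped. Mean levels were 61.5 ± 5.01 CPM for WT against 69.8 ± 5.62 CPM for MUT (SD, n = 3), with a log2 fold change of 0.18 (SE 0.088, 95% interval -0.02 to 0.38, edgeR adjusted p = 0.998). The exact permutation p was 0.2, and the unadjusted edgeR p went from 0.0686 without the block to 0.0468 with it, where the adjusted p was 0.75.

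*Myc* itself, the founding member (chr15:61985391-61990374 on the plus strand), had few counts, 128, 85 and 139 in WT and 133, 123 and 96 in MUT. The lowest and the highest sample were both WT, so the MUT samples lay inside the WT range. Scaled to library size, this came to 5.03 ± 1.22 CPM for WT against 5.08 ± 0.88 CPM for MUT (SD, n = 3). The log2 fold change was 0.01 with a 95% interval of -0.51 to 0.53, the widest of the 10, which leaves room for a level in MUT from 0.704 to 1.45 times that in WT. Its sign rested on single samples, being -0.19 without WT replicate 2, -0.10 without MUT replicate 1 and -0.04 without MUT replicate 2. Between WT mice the coefficient of variation was 24.3%, against 9.39% from counting alone.

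In the summed level per length of the 3 Myc genes, *Mycn* made up the larger part in every sample. Its share was 69.1%, 68.0% and 69.0% in the WT mice against 67.6%, 66.8% and 68.0% in the MUT mice. These are 68.7 ± 0.612% (SD, n = 3) and 67.5 ± 0.616% (SD, n = 3), groups that lay side by side and all but touched between WT replicate 2 and MUT replicate 3. *Mycl* took 24.5 ± 2.04% in WT and 26.6 ± 0.626% in MUT, and *Myc* took 6.80 ± 1.48% and 5.93 ± 0.553%, both with overlapping groups. The sum itself was 27.1 ± 2.03 CPM per kb in WT and 31.4 ± 2.68 in MUT (SD, n = 3), with MUT replicate 3 at 28.3 below WT replicate 1 at 29.4. The shares are scores over chosen genes and were given no test.

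**Figure D3:**
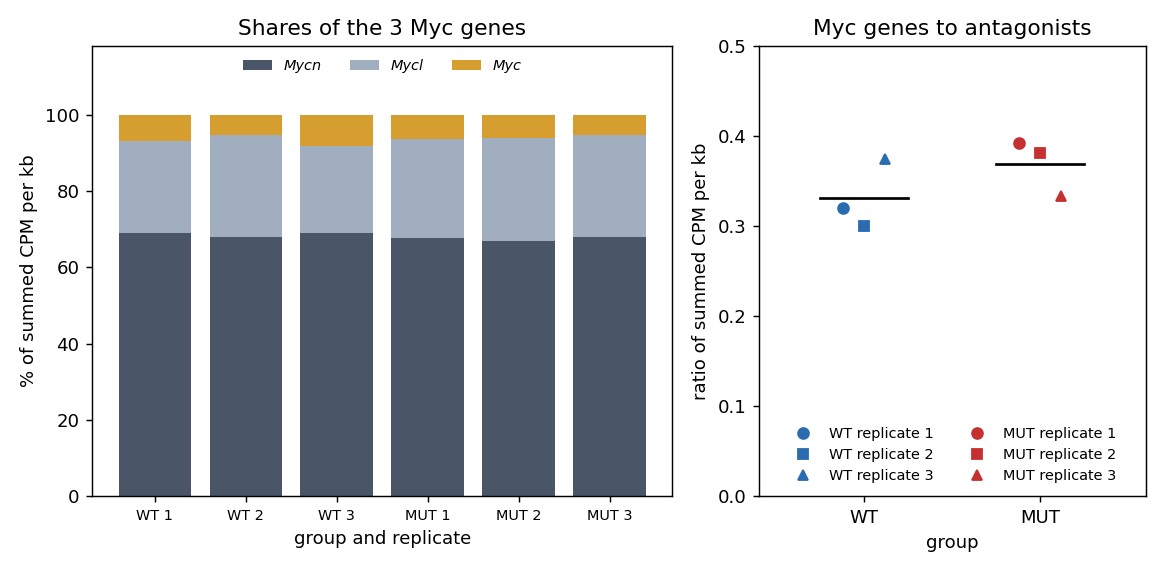
Left, share of *Mycn*, *Mycl* and *Myc* in the sum of their CPM per kb in each sample, in percent. Right, ratio of that sum to the sum over *Mxd1*, *Mxi1*, *Mxd3*, *Mxd4*, *Mnt* and *Mga*, by sample with a bar at each group mean. *Mycn* holds 66.8% to 69.1% of every bar, and the ratio lies between 0.301 and 0.393 with overlapping groups.

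*Max*, the shared partner in the network (chr12:76937269-76962201 on the minus strand), varied little, by 4.16% within WT and 5.08% within MUT. WT mice gave 1639, 1630 and 1788 counts, MUT mice 1761, 1603 and 1722. The values interleaved, with means of 72.3 ± 3.01 CPM for WT against 73.4 ± 3.73 CPM for MUT (SD, n = 3). The log2 fold change was 0.02 (SE 0.069, 95% interval -0.14 to 0.18), and it was -0.02 without WT replicate 2 and likewise without MUT replicate 1. *Max* stood at 0.185 ± 0.027 times the summed level per length of the 9 other network genes in WT and at 0.175 ± 0.010 in MUT (SD, n = 3).

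The genes for the Mxd group of repressors split by level. Their estimated changes went in both directions, and the 95% interval of each included 0. *Mxd3*, which encodes Mad3, known for its expression in dividing cells (chr13:55325168-55329823 on the minus strand), had 190, 189 and 207 counts in WT and 164, 168 and 183 in MUT. After scaling, the MUT samples at 7.17, 7.29 and 7.82 CPM all lay below the WT samples at 8.30, 8.08 and 8.75 CPM. The log2 fold change was -0.17 (SE 0.13, 95% interval -0.47 to 0.12, edgeR unadjusted p = 0.211, adjusted p = 0.998), so this separation did not pass the test. The samples within a group differed by 4.08% in WT and 4.70% in MUT, less than the 7.16% and 7.64% that counting alone gives. *Mxd3* shares 105 bases of its exons, 4.43%, with *Prelid1* on the opposite strand, which had 2584 to 3097 counts, and fragments there were left uncounted.

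*Mxd1*, which encodes Mad1, known as a gene of cells leaving the cycle (chr6:86647042-86669161 on the minus strand), had 460, 439 and 426 counts in WT and 373, 388 and 484 in MUT. MUT replicate 3 was the highest of the 6 and the other MUT samples the lowest, and the means were 19.0 ± 1.06 CPM and 17.9 ± 2.40 CPM (SD, n = 3). *Mxi1*, also called Mad2 (chr19:53310506-53375810 on the plus strand), had 1761, 1829 and 1849 counts in WT and 1580, 1849 and 1709 in MUT, 77.8 ± 0.690 against 74.1 ± 5.64 CPM (SD, n = 3). The WT samples lay within the MUT range. *Mxd4*, for the repressor Mad4 (chr5:34173883-34187720 on the minus strand), had 2279, 2398 and 2110 counts in WT and 2316, 2475 and 2350 in MUT, 97.1 ± 7.0 against 103 ± 3.77 CPM (SD, n = 3), and the groups overlapped. The log2 fold changes of *Mxd1*, *Mxi1* and *Mxd4* were -0.08, -0.07 and 0.09, none past the test (edgeR adjusted p = 0.998 for each). With 1 sample left out they ranged from -0.19 (without MUT replicate 3) to -0.02 (without MUT replicate 1) for *Mxd1*, from -0.14 (without MUT replicate 2) to -0.03 (without MUT replicate 1) for *Mxi1*, and from 0.03 (without WT replicate 3) to 0.11 (without WT replicate 2) for *Mxd4*.

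*Mnt*, a broadly expressed repressor (chr11:74830920-74845725 on the plus strand), was counted 1690, 1604 and 1429 times in WT against 1538, 1572 and 1717 times in MUT. The lowest and the highest value were both WT, 60.4 and 73.9 CPM. The group means were 67.6 ± 6.78 and 69.6 ± 3.32 CPM (SD, n = 3), and the log2 fold change was 0.04 (95% interval -0.15 to 0.24), or -0.03 without WT replicate 3.

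*Mga* had the most counts of the network, yet its WT mice spread widely. The gene (chr2:119897228-119969581 on the plus strand) was counted 15542, 13674 and 9801 times in the WT mice against 14309, 13538 and 13631 times in the MUT mice. The 3 MUT samples lay between 583 and 625 CPM, while WT ran from 414 CPM in replicate 3 to 679 CPM in replicate 1. The coefficient of variation was 24.0% in WT and 3.93% in MUT, against 0.889% and 0.851% from counting. The log2 fold change was 0.10 (SE 0.16, 95% interval -0.27 to 0.46, edgeR adjusted p = 0.998), -0.08 without WT replicate 3 and 0.25 without WT replicate 1.

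WT replicate 3 stood apart from the other libraries in genes with long exons, and *Mga*, with 15340 merged exon bases, is the longest of the network. Among genes of at least 10 CPM its median log2 deviation from the 6-sample mean was 0.15 for genes under 2 kb, -0.19 for the 1021 genes of 10 to 20 kb and -0.32 for the 93 genes over 20 kb. The deviation of *Mga* in that library was -0.47. WT replicate 1 went the other way, with -0.08 for genes under 2 kb, 0.09 for 10 to 20 kb and 0.17 over 20 kb. *Mga* in WT replicate 1 deviated by 0.25. With a correction for exon length in the fit, chosen after seeing the data, the log2 fold change of *Mga* was 0.06 and that of *Mycl* was 0.31. The origin of this length pattern was not tested.

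**Figure D4:**
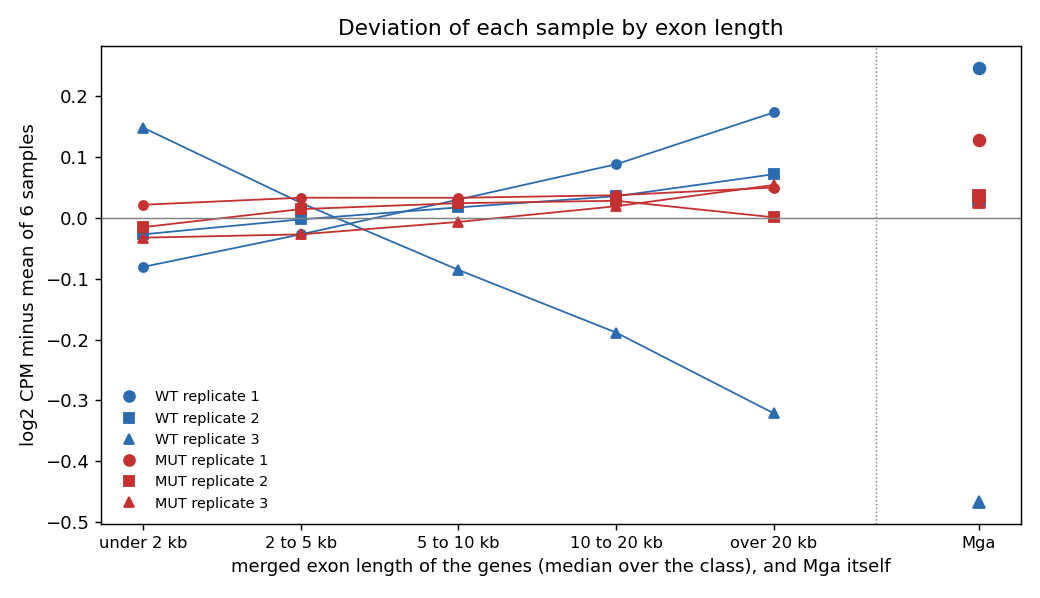
Median deviation of log2 CPM from the 6-sample mean for genes of each merged exon length class, one line per sample, and the same deviation for *Mga* at the right. WT replicate 3 falls from 0.15 in the shortest class to -0.32 in the longest, and *Mga* in that sample is at -0.47. WT replicate 1 rises from -0.08 in the shortest class to 0.17 in the longest, with *Mga* at 0.25.

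The balance of Myc genes against antagonists, as a ratio of summed levels per length, was 0.320, 0.301 and 0.374 in the WT mice against 0.393, 0.381 and 0.334 in the MUT mice. WT replicate 3 lay above MUT replicate 3, so the groups overlapped, with means of 0.332 ± 0.038 and 0.369 ± 0.031 (SD, n = 3). *Mga* made up 48.1%, 44.8% and 38.2% of the antagonist sum in WT and 48.1%, 44.8% and 44.7% in MUT, lowest in WT replicate 3. Without *Mga* the ratio was 0.589 ± 0.038 in WT and 0.684 ± 0.076 in MUT, and WT replicate 1 at 0.616 still exceeded MUT replicate 3 at 0.604.

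The network has a sister branch in which Mlx takes the place of Max and pairs with the glucose-sensing factors MondoA (*Mlxip*) and ChREBP (*Mlxipl*). *Mlxipl* had 42.8, 46.2 and 38.9 CPM in WT and 53.4, 57.0 and 47.5 CPM in MUT, all MUT samples above WT, a log2 fold change of 0.30 (SE 0.096, edgeR unadjusted p = 0.0125, adjusted p = 0.998). *Mlxip* was also separated, with 126 ± 18.9 against 146 ± 6.92 CPM (SD, n = 3) and a log2 fold change of 0.21, although WT replicate 2 at 137 and WT replicate 1 at 138 CPM came close to MUT replicate 1 at 139 CPM. *Mlx* was at 22.2 ± 2.65 and 21.5 ± 0.193 CPM (SD, n = 3), with a log2 fold change of -0.05. The Myc relative *Bmyc* had 30 to 57 counts per sample with a log2 fold change of 0.00, and *Mycs* had at most 2 counts in any sample and was not tested. Of the 4 genes tested in this list, 3 were higher in MUT and 1 lower, and 0 passed the FDR of 0.1. All MUT samples lay above WT in 2 of the 4, against 4.69% of all tested genes.

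The genes that carry out the network's work also gave no call, in either direction, in any of the lists. The median log2 fold changes below are to be read against 0.01 over all tested genes, of which 51.9% were higher in MUT, and 0.02 over genes of at least 10 CPM, of which 58.1% were. Without WT replicate 3 the median over all tested genes was 0.01, with 53.1% higher in MUT. With the exon length correction it was -0.0094, with 46.65% higher. With the replicate block it was 0.0071, with 52.26% higher. Among 12 coactivators and partners of Myc, such as the histone-acetylation scaffold *Trrap*, 11 were higher and 1 lower, with a median of 0.07 and 0 called. *Cdk9*, the kinase that releases paused RNA polymerase II, had the smallest p of those higher (166 ± 6.92 against 177 ± 8.42 CPM, log2 fold change 0.10), its cyclin *Ccnt1* the smallest of those lower (-0.04), and the chromatin reader *Wdr5* the highest level per length. Without WT replicate 3, 7 of the 12 were higher and 5 lower, with a median of 0.03. With the exon length correction and with the replicate block, 11 were higher and 1 lower, with medians of 0.05 and 0.07.

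Known Myc target genes for ribosome assembly, metabolism, translation and the cell cycle numbered 27, of which 22 were higher and 5 lower in MUT, with a median of 0.07 and 0 called. None of the 27 had an unadjusted p under 0.05, against 2.78% of all tested genes. *Nolc1*, a nucleolar chaperone of ribosome assembly, was the 1 target of the 27 with all MUT samples above WT, a pattern found in 4.69% of all tested genes. Its levels were 181 ± 7.29 against 199 ± 11.0 CPM (SD, n = 3), with a log2 fold change of 0.14. *Gnl3*, which encodes the nucleolar GTPase nucleostemin, had the smallest p of those lower, with 154 ± 4.79 against 145 ± 5.36 CPM and a log2 fold change of -0.08. *Npm1*, the nucleolar protein with the highest level per length of the list, stood at 801 ± 51.4 and 844 ± 50.4 CPM (SD, n = 3), with overlapping groups. Without WT replicate 3 the split was again 22 and 5, and with the exon length correction it was 21 and 6. With the replicate block it was 23 and 4.

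**Figure D5:**
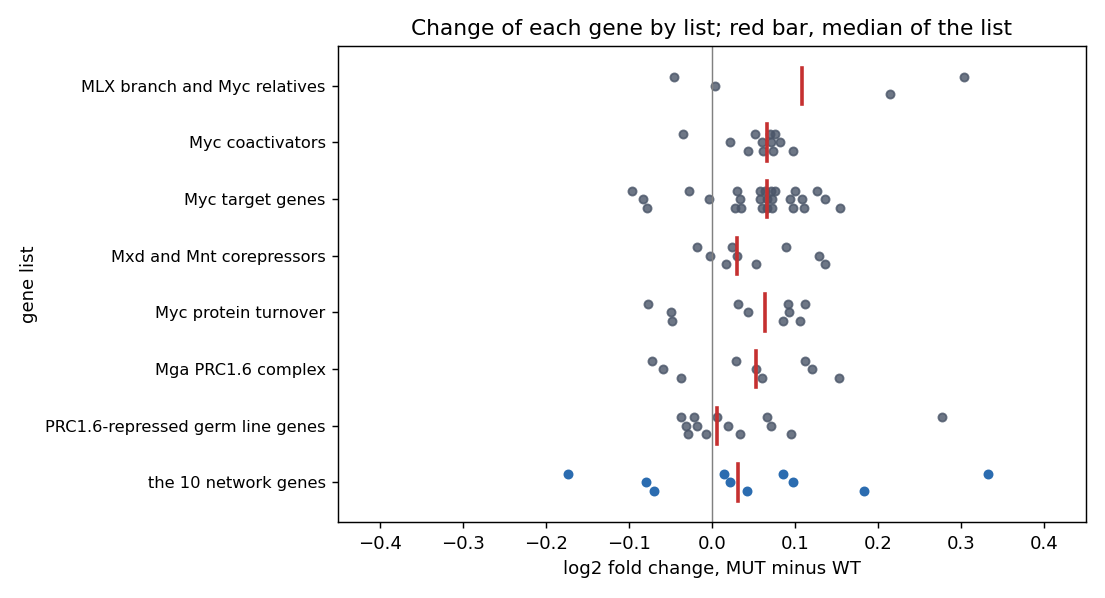
Log2 fold change (MUT minus WT) of every tested gene of the partner and target lists and of the 10 network genes, 1 point per gene, with a red bar at each list's median. The medians run from 0.01 for the PRC1.6-repressed germ line genes to 0.11 for the Mlx branch, and the points farthest to the right are *Mycl*, *Mlxipl* and *Stra8*, at 0.33, 0.30 and 0.28.

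On the repressive side, 9 corepressor genes split into 7 higher and 2 lower, with a median of 0.03. The list holds genes of the Sin3 and histone deacetylase corepressor that Mxd proteins and Mnt recruit, and also *Ncor1*. Under the exon length correction 5 were higher and 4 lower with a median of 0.0026, against -0.0094 over all tested genes in that fit. Without WT replicate 3 and with the replicate block the split stayed 7 and 2, with a median of 0.03 in each. *Hdac1*, a histone deacetylase, had all MUT samples above WT, as did 4.69% of all tested genes. It stood at 114 ± 11.3 CPM in WT and 125 ± 1.69 CPM in MUT (SD, n = 3, log2 fold change 0.13). *Rbbp7*, a histone-binding subunit, had the highest level per length and a log2 fold change of -0.02. Genes that control the stability of Myc proteins numbered 10, 7 higher and 3 lower, with a median of 0.06 that turned to -0.02, 5 higher and 5 lower, without WT replicate 3. With the exon length correction and with the replicate block they stayed 7 higher and 3 lower, with medians of 0.04 and 0.07. They included the ubiquitin ligase subunit *Fbxw7* at 0.09, the phosphatase subunit *Ppp2r5a* at -0.08 and the very long ligase gene *Huwe1* at 0.09, whose counts fell from 53548 in WT replicate 1 to 29876 in WT replicate 3.

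Of the 9 genes for other subunits of the Mga-containing PRC1.6, 6 were higher and 3 lower, with a median of 0.05 and no unadjusted p under 0.05. *L3mbtl2*, a chromatin-binding subunit, was at 113 ± 8.19 and 126 ± 9.94 CPM (SD, n = 3, log2 fold change 0.15), the subunit that defines the complex, *Pcgf6*, had a log2 fold change of -0.06, and the E2F partner *Tfdp1*, with the highest level per length of the list, 0.05. The 13 germ line genes that PRC1.6 is known to silence in embryonic stem cells had counts in all of these sorted samples, among them *Dazl*, which encodes an RNA-binding protein, at 907 ± 18.4 and 887 ± 64.1 CPM (SD, n = 3). They split into 7 higher and 6 lower with a median of 0.01. With the exon length correction and with the replicate block, 9 were higher and 4 lower, with medians of 0.02 and 0.03. Without WT replicate 3, however, 10 were higher and 3 lower with a median of 0.12, against 53.1% higher and a median of 0.01 over all tested genes. In that edgeR fit 4 of the 13 had an unadjusted p under 0.05, none past the FDR. Over all tested genes 729 had one there, against 547 in the main fit. *Sycp1* and *Sycp3* of the 13 are also among the 5 spermatocyte markers summed below. The sum of those markers was highest in WT replicate 3, at 412 CPM, against 312 to 361 CPM in the other samples. The part of such cells in the shift of the 13-gene list was not tested.

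*Stra8*, the retinoic acid target of germ cells entering differentiation and meiosis, was the 1 gene of that list with an unadjusted p under 0.05. Its level was 159, 173 and 175 CPM in the WT mice against 185, 243 and 187 CPM in the MUT mice, and the log2 fold change was 0.28 (SE 0.11). In edgeR's quasi-likelihood test the unadjusted p was 0.0361 and the adjusted p was 0.998. All MUT samples lay above WT, as in 4.69% of all tested genes, and MUT replicate 2 stood highest. *Slc25a31*, a germ cell ADP and ATP carrier, had the smallest p of those lower, with a log2 fold change of -0.03.

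Markers of cell types were summed in each sample beside these values, and 0 genes of any marker list passed the FDR of 0.1. An unadjusted edgeR p under 0.05 was found for 3 of the 5 B cell markers and 2 of the 4 differentiating spermatogonia markers. It was found for 1 marker each of undifferentiated spermatogonia, spermatids and Sertoli cells and for 0 in the other lists, against 2.78% of all tested genes. The 4 markers of differentiating spermatogonia summed to 502 to 563 CPM in WT and 588 to 726 CPM in MUT, separate ranges in the same direction as *Mycl*, *Mlxipl* and *Stra8*, the last being 1 of those 4 markers. The 10 markers of undifferentiated spermatogonia summed to 2081 to 2653 CPM in WT and 2287 to 2702 CPM in MUT. Markers of other cells were present too, with 5 B cell markers at 49.9 to 132 CPM in WT and 25.2 to 55.3 in MUT, 5 macrophage markers at 545 to 920 and 479 to 594, 5 spermatid markers at 857 to 1459 and 593 to 1131, and 5 spermatocyte markers at 312 to 412 and 357 to 361. The 3 peritubular myoid cell markers also had separate ranges, 6.56 to 7.40 CPM in WT and 7.55 to 10.5 CPM in MUT. The 5 Leydig cell markers summed to 66.3 CPM in MUT replicate 3 and to 12.8 to 20.8 CPM in the other samples, and the 5 Sertoli and 3 endothelial cell markers to at most 34.1 and 35.7 CPM in any sample. None of these markers was at 0 in all 6 samples. The part of any of these cells in the values of the network was not tested, and in such bulk samples a smaller number of cells of a type and less RNA per cell cannot be told apart. *Hras* itself was at 60.7 ± 4.21 CPM in WT and 66.7 ± 4.97 CPM in MUT (SD, n = 3) and tdTomato at 61.9 ± 4.99 and 61.4 ± 7.64 CPM, both overlapping between groups, and gene counts do not tell the mutated allele from the other.

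The genes whose pattern over the 6 samples was most like that of a network gene were found by Pearson's r of log2 CPM among the 10583 genes of at least 10 CPM. For *Myc* they were *Tor1a*, *Mat2b* and *Sdhb*, with r of 0.998, 0.993 and 0.975. For *Mycn* they were *Tead2*, *Trip10* and *Cd3eap*, with r of 0.984, 0.976 and 0.960, and for *Max* they were *Arl4d*, *Rrp9* and *Set*, with r of 0.982, 0.954 and 0.946. With only 6 samples, 41, 64 and 32 genes had an r over 0.9 with *Myc*, *Mycn* and *Max*, and the samples share their libraries, so these are descriptions of likeness.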

How the data were processed

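RNA from 3 WT and 3 MUT mice was analysed. For each library the authors deposited unnormalized counts of fragments, which featureCounts 1.6.2 had assigned by gene name to GENCODE vM17 exons on GRCm38.p6, to which a tdTomato entry was added. Fragments were counted without regard to strand, and those that mapped to several places or to several genes were left out. FastQC and STAR are named in the submitters' processing notes. Libraries were TruSeq Stranded mRNA, read from both ends. Merged exon lengths and positions are those of the count files, and transcript lengths were read from GENCODE vM21, which has that build too.

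In R 4.3.3, edgeR 4.0.16 scaled the counts by TMM, kept 19656 genes with filterByExpr, and compared MUT with WT by its quasi-likelihood test with Benjamini-Hochberg adjustment over all tested genes at an FDR of 0.1. Standard errors come from the size of a change and its F statistic, and 95% intervals from the total degrees of freedom. Log2 CPM used a prior count of 2. The script for the fits was tested on simulated counts. Precision statements from depth cover counting error only.

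The 10 genes and all gene lists were chosen with earlier results of these data known. Genes named in each partner list had the smallest p in each direction or the highest level per length, and 3 genes most alike were named for *Myc*, *Mycn* and *Max*. Further genes named to describe a list, overlap or call were chosen after their values were seen.

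The replicate numbers come from the sample labels. Deviations from the group means of same-numbered WT and MUT samples correlated over 10583 genes, with r of 0.304, 0.156 and 0.395. The numbers were therefore taken as pairs in an alternative fit. However, WT replicate 2 and MUT replicate 1 reached 0.326, and the study does not say which of these mice were paired, so the pairing is uncertain. The study's test had no block, so the fit without it is the main one. Replicates of a group differed by 4.67 to 27.6 in chi-square per degree of freedom, so none was a repeat of another. Alternatives were DESeq2 1.42.0, limma voom (limma 3.58.1), DESeq2 size factors, no filter, at least 10 counts in every sample, the block, an FDR of 0.05 and each sample left out. An exon length correction, transcript lengths for the order of levels and the alternatives of the partner lists were chosen after seeing the data.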

Additional observations from a re-analysis of the deposited data

How the results depend on the processing

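None of the 10 network genes was called under any alternative run. Of 140 recomputed log2 fold changes 133 kept their direction and 7 reversed, and the smallest adjusted p was 0.251 for *Mycl* without MUT replicate 3. The reversed values were -0.186, -0.100 and -0.0362 for *Myc* without WT replicate 2, MUT replicate 1 and MUT replicate 2, -0.0169 and -0.0211 for *Max* without WT replicate 2 and MUT replicate 1, and -0.0328 and -0.0784 for *Mnt* and *Mga* without WT replicate 3. The median of the Myc turnover genes was -0.0193 without WT replicate 3. The highest values with 1 sample left out were 0.149 for *Myc*, 0.0545 for *Max*, 0.102 for *Mnt* and 0.253 for *Mga*. Over all alternatives *Mycl* ranged from 0.269 to 0.400, *Mycn* from 0.122 to 0.248 and *Mxd3* from -0.211 to -0.141.

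The count of called genes over the whole table, 2, depended on the fit. It was 9 with DESeq2, 4 with limma voom, 5 with no filter, 0 with at least 10 counts in every sample (479 genes had an unadjusted p under 0.05 there), 1 with the exon length correction, 1 at an FDR of 0.05, and between 0 and 6 with 1 sample left out, the 0 without MUT replicate 2 and the 6 without MUT replicate 3. The replicate block gave 13 calls in edgeR and 55 in DESeq2, and it changed no call of a network gene. With transcript lengths the share of *Mycn* was 70.1% in WT and 68.9% in MUT and that of *Mycl* in MUT 25.4%. The cause of these differences was not tested, beyond the fewer genes or samples that some of the alternatives use. Depth limited *Myc* most, with 85 to 139 counts per sample.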
